A study of Schmidtea mediterranea with 35 samples.

Results

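A set of 98 transcripts, of 25462 measured, was higher in planarian stem cells 13 days into RNAi against p53 than in control stem cells of the same day, and near the control both at day 6 of p53 RNAi and at day 13 of zfp1 RNAi. The members were chosen on these values by a rule on group medians of RPKM, which is reads per kilobase of transcript, scaled to library size. Each difference, D, was log2(median RPKM + 1) of a knockdown minus that of the control of the same day. A member had D of at least 1 for p53 at day 13, D below 0.3 for p53 at day 6 and D between -0.4 and 0.4 for zfp1 at day 13, and at least 1 of its 9 group medians reached 3 RPKM. The p53 and control values of days 6 and 13 and the zfp1 values of day 13 are therefore described without a test, and only day 9, of which the rule took no difference, was tested.

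The libraries were made from poly(A) RNA of X1 cells, the gate of Hoechst-stained, flow-sorted planarian cells that holds the dividing stem cells. All animals were Schmidtea mediterranea of CIW4, a single clonal line, and all had eaten bacteria expressing double-stranded RNA in 3 feedings. The double-stranded RNA targeted p53, zfp1 or unc22, the last of which is a control without a target in the worm, and cells were sorted on days 6, 9 and 13. Of the 9 groups, all held 4 libraries except the control at day 13, which had 3 because another was dropped by the submitters for its low yield.

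Neoblasts, which the X1 gate collects, are the dividing stem cells of the adult planarian and give rise to all of its differentiated tissues. The planarian p53 gene is related to the vertebrate tumour suppressor p53, a transcription factor that acts on the cell cycle and cell death, and it is expressed in neoblasts and their young descendants. The zinc finger gene zfp-1 is known for its role in neoblasts that feed the epidermis, a lineage in which p53 is also used. The deposited table names transcripts by SMED identifiers alone, so no name or role is given to a member, and neither the level of the targeted genes nor markers of X1 cells could be checked.

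The 35 libraries held 4391559 to 26115474 reads assigned to transcripts. Of these libraries 3 stood apart, namely replicate 1 of zfp1 at day 6, replicate 5 of zfp1 at day 13 and replicate 5 of the control at day 13. They had 4945, 5021 and 4546 transcripts at 0 and gave 25.2%, 32.3% and 27.5% of their reads to 1 transcript. Several results that rest on them are given with and without them, and the others with them only. Nothing in the labels says that libraries of a group came from separate animals or sorts, so a p-value measures only the spread between libraries, which may be technical. In bulk RNA, more cells of a kind and more RNA per cell cannot be told apart.

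The 98 members were moderately expressed in the p53 libraries of day 13, where they were chosen to be high. There their group medians ran from 1.97 to 47.9 RPKM with 5.51 RPKM in the middle, and 78 members were under 10 RPKM. In the controls of days 13 and 9 the middle was lower, at 1.58 and 2.35 RPKM. Over all 19206 transcripts that passed a filter on low values it was 3.59 and 3.66 RPKM in these controls. D for p53 at day 13 had a median of 1.25 and reached 3.10, with 25 members at 1.5 or more and 4 at 2 or more. A member had a median of 78 reads in a p53 library of day 13 and 20 in a control library of that day, so the control level of many members rests on few reads. D for p53 at day 6 ran from -0.42 to 0.30 (rounded), with 29 members below 0, and D for zfp1 at day 13 ran from -0.39 to 0.40, with 71 members above 0.

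The threshold of the rule lay in the upper tail of D, and no gap marked it. SMED30017662, with group medians of 9.2 RPKM in p53 and 4.09 RPKM in control libraries, and SMED30034682, with 3.08 and 1.03 RPKM, were just inside it with D of 1.002 and 1.005. SMED30004223, with 3.08 and 1.04 RPKM, and SMED30024109, with 3.25 and 1.13, met the other conditions and were just outside it with D of 0.999 and 0.998. In all, 9131 transcripts met the conditions other than the one on p53 at day 13, and 98 of them met that one too.

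The order of the single libraries divided the 98 members into 3 groups. For 36 members, each of the 4 p53 libraries of day 13 was above each of the other 31 libraries of the study; these are called the separated transcripts. For 39 members, the 4 p53 libraries were above the 3 controls of day 13 but not above all other libraries; these are called the intermediate transcripts. For the remaining 23, called the overlapping transcripts, at least 1 p53 library of day 13 was not above the controls of that day. Among all 19206 transcripts that passed the filter on low values, 1.84% were separated in this way and 14.9% had all p53 libraries above all controls at day 13, against 36.7% and 76.5% of the members, whose choice used these libraries. The division was made after the values were seen and was given no test.

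**Figure D1:**
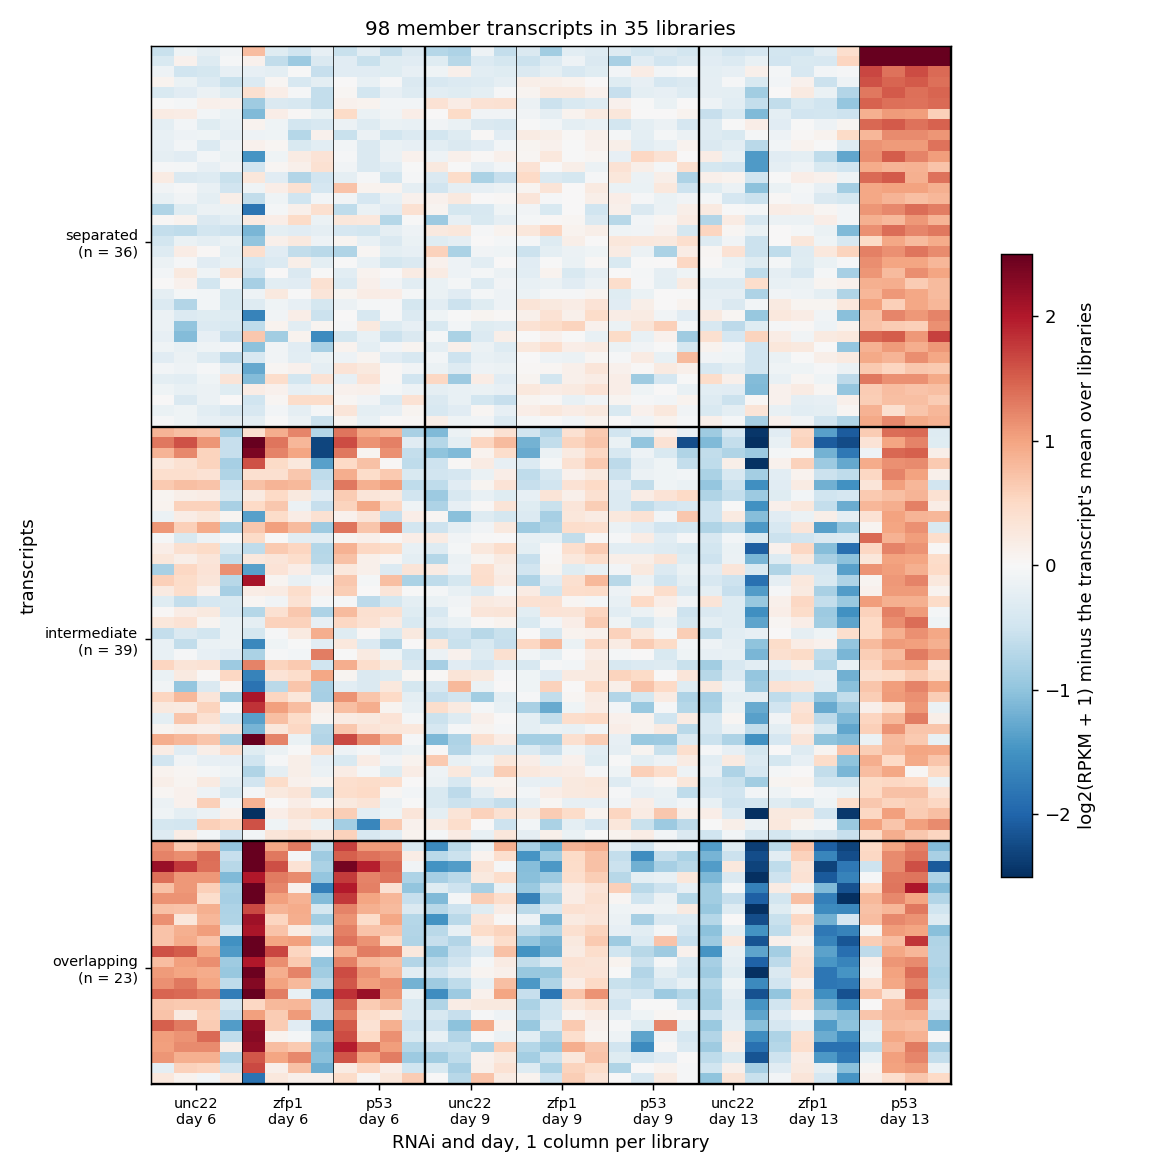
Level of the 98 members (lines) in the 35 libraries (columns), as log2(RPKM + 1) minus the transcript's mean over all libraries, with colours saturating at the ends of the scale and thick lines between days and between the 36 separated, 39 intermediate and 23 overlapping transcripts. The separated transcripts are high in the 4 p53 libraries of day 13 alone, while most overlapping transcripts are also high in replicates 1 to 3 of the day 6 groups and low in replicate 5 of the control at day 13.

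The separated transcripts were nearly flat until day 13 of p53 RNAi. Their median level was 1.8, 2.04 and 1.95 RPKM in the control at days 6, 9 and 13 and 1.94, 2.34 and 2.22 RPKM after zfp1 RNAi. After p53 RNAi it was 1.93 RPKM at day 6, 2.34 at day 9 and 6.45 at day 13. The day 13 level of p53 exceeded the control of day 6, which is another set of libraries than the control of day 13, by 1 or more on the log2 scale for 26 of the 36, and the control of day 9 for 29 of the 36, where 473 and 553 of the 19206 tested transcripts did so. Both counts rest on the p53 values of day 13 that chose the members. The division also placed these p53 libraries above every control library of days 6 and 9. Some excess over these controls was therefore built in, and nothing is read from the counts.

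SMED30030712, a transcript of 732 bases, had the largest difference. Lengths in bases, here and below, were inferred from the steps of the RPKM values. It was at 42.6, 46.1, 49.6 and 53.6 RPKM in the p53 libraries of day 13 and at 5.11, 4.47 and 4.71 RPKM in the controls of that day. Group means were 48 ± 4.72 (SD, n = 4) and 4.77 ± 0.323 RPKM (SD, n = 3), and the ratio of the medians was 10.2. All p53 libraries of day 13 were above all others by a wide margin. At day 9 of p53 RNAi the same transcript was at 5.11, 4.57, 4.98 and 4.55 RPKM, at day 6 it was at 4.19, 5.37, 3.98 and 4.95 RPKM, and neither range left that of the controls of days 6 to 13, which was 3.51 to 6.21 RPKM. After zfp1 RNAi at day 13 it was at 4.59, 4.41, 5.42 and 9.2 RPKM; the highest of these, and the highest of day 6 with 12.1 RPKM, came from the zfp1 libraries that stood apart.

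SMED30008091, of 863 bases, was next. It was at 27.8, 26.9, 28.6 and 27.9 RPKM in the p53 libraries of day 13, or 27.8 ± 0.721 (SD, n = 4), and at 2.85, 2.73 and 3.16 RPKM in the controls, or 2.92 ± 0.225 (SD, n = 3), a ratio of medians of 9.75. Its p53 libraries of day 9 were at 1.7, 2.89, 2.38 and 2.66 RPKM, so the higher level was seen at day 13 and not at day 9. The zfp1 libraries of day 13 were at 2.4, 2.6, 2.56 and 5.89 RPKM, with the library that stood apart again the highest. No other separated transcript had a D at day 13 of 2 or more.

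Several weaker separated transcripts were as tight, and 4 of them were picked after their values were seen, because they stayed members whichever single library was left out. SMED30010479 was at 7.3, 5.65, 7.12 and 5.94 RPKM after p53 RNAi at day 13 and at 1.2, 1.26 and 1.84 RPKM in the control. SMED30024685 was at 5.36, 4.83, 5.11 and 4.52 RPKM against 0.809, 1.09 and 0.636 RPKM. SMED30023416 was at 11, 11.9, 10.4 and 11.4 RPKM against 2.59, 3.41 and 4.01 RPKM. None of these ranges came near the other, with ratios of medians of 5.18, 6.14 and 3.29. SMED30012951 was at 5.39, 5.02, 4.9 and 5.15 RPKM against 1.1, 0.927 and 0.535 RPKM, and its zfp1 libraries of day 13 were at 0.514, 0.76, 0.629 and 0.186 RPKM, overlapping the controls.

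SMED30001142, a long transcript of 4528 bases, stood for the other end of the separated group, where the level was high and the difference small. It was at 16.7, 18.5, 17.6 and 18.3 RPKM in the p53 libraries of day 13 and at 8.5, 8.38 and 4.29 RPKM in the controls, with D of 1.01. The lowest control was replicate 5, one of the libraries that stood apart. The zfp1 libraries of day 13 were at 11.3, 12.2, 10.8 and 4.79 RPKM, so p53 libraries were above them all, by less than they were above the controls.

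**Figure D2:**
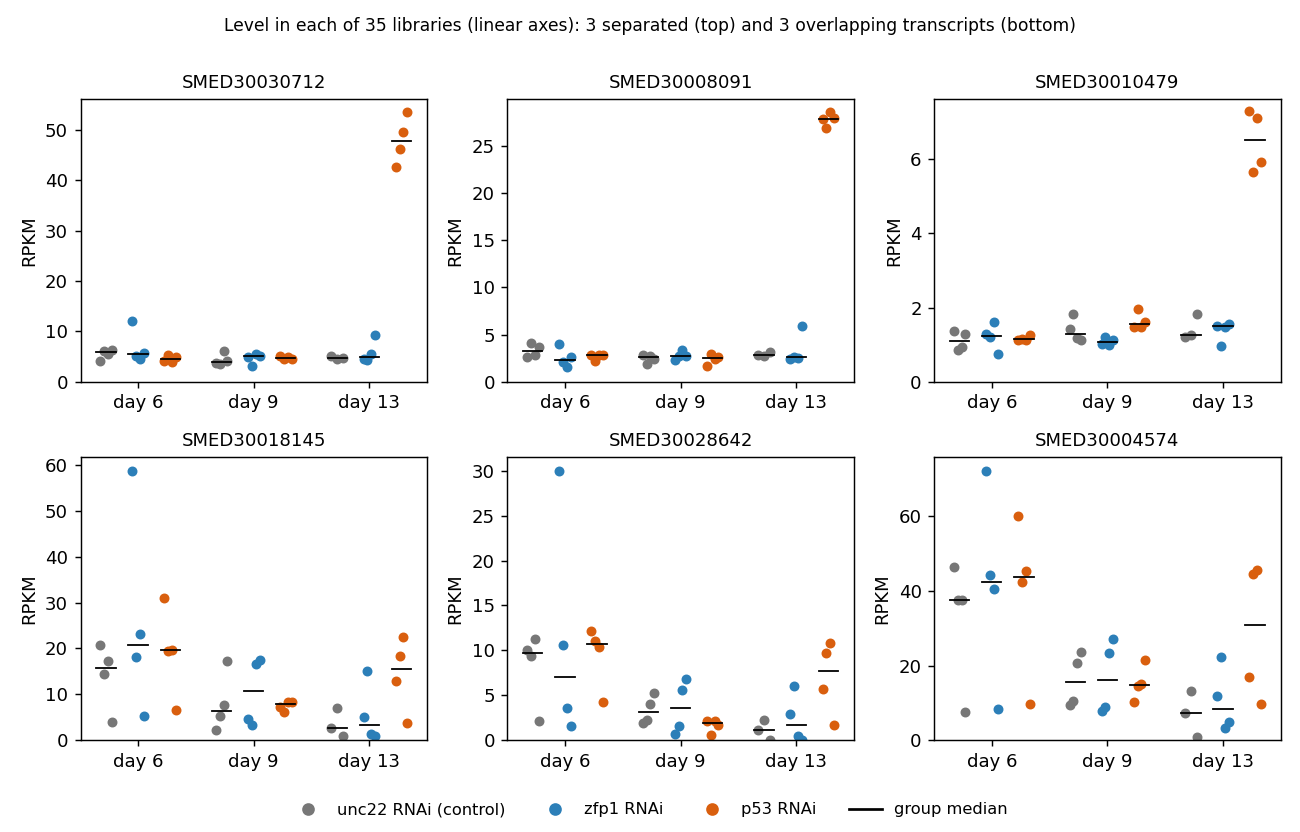
RPKM on linear axes of 6 members in each of the 35 libraries, by day and RNAi, with points for libraries and bars for group medians. The top 3, SMED30030712, SMED30008091 and SMED30010479, are separated transcripts whose 4 p53 libraries of day 13 lie above all other points; the bottom 3, SMED30018145, SMED30028642 and SMED30004574, are overlapping transcripts that were as high at day 6 and spread widely within groups.

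The overlapping transcripts followed another course. In the control their median level was 8.16 RPKM at day 6, 3.07 at day 9 and 1.52 at day 13, and after zfp1 RNAi it was 7.98, 3.65 and 1.69 RPKM. After p53 RNAi it was 9.29 RPKM at day 6, 2.58 at day 9 and 6.6 at day 13. All 23 were lower in the control at day 13 than at day 6, 20 of them by 1 or more on the log2 scale, where 216 of the 19206 tested transcripts were. The median of this difference was -1.79 over the 23, -0.66 over the intermediate and -0.03 over the separated transcripts, and -0.01 over all tested. Since the rule asked for a low control at day 13 beside p53 libraries of the same day, it favours such transcripts.

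The day 13 level of the overlapping transcripts under p53 RNAi was therefore not a level unseen elsewhere. It was above the control of day 6 for 7 of the 23 and by 1 or more for 0, with a median difference of -0.21 on the log2 scale. Of the 19206 tested transcripts, 9108 were above that control and 473 by 1 or more. For these transcripts the data show a day 13 level in p53 libraries near the control of day 6, not a level above all earlier ones. Their median was 6.6 RPKM there, below the 9.29 RPKM of p53 at day 6, and it was lower still in control and zfp1 libraries of day 13. By group medians, all 98 members were higher at day 13 than at day 9 of p53 RNAi, with a median difference of 0.96, and 42 by 1 or more. Of all tested transcripts 50.4% were higher, 307 of the 19206 by 1 or more, and the members were chosen for a high level at day 13.

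SMED30018145, of 467 bases, had the largest D among the overlapping transcripts, 2.15. It was at 12.8, 18.4, 22.5 and 3.63 RPKM in the p53 libraries of day 13, at 2.74, 7.01 and 0.923 RPKM in the controls and at 5.13, 15, 1.38 and 0.961 RPKM after zfp1 RNAi. Replicate 4 of p53 lay within the range of the controls, and replicates 1 and 2 of zfp1 within that of the p53 libraries. At day 6 the controls were at 20.7, 14.4, 17.2 and 3.99 RPKM and the p53 libraries at 30.9, 19.4, 19.7 and 6.58 RPKM, which reached higher than at day 13.

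SMED30004574, of 948 bases, was the strongest of these transcripts. It was at 17, 44.5, 45.5 and 9.78 RPKM after p53 RNAi at day 13, or 29.2 ± 18.5 (SD, n = 4), and at 7.38, 13.2 and 0.758 RPKM in the control, or 7.11 ± 6.23 (SD, n = 3). Its controls of day 6 were at 46.5, 37.6, 37.7 and 7.5 RPKM, near the highest p53 libraries of day 13. SMED30015821, of 413 bases, was at 12.5, 24.8, 32.7 and 6.42 RPKM against 5.96, 9.32 and 0.348 RPKM at day 13, again with p53 replicate 4 inside the range of the controls.

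The other overlapping transcripts with a large D had the same library order and rested on low values. SMED30028642 was at 5.7, 9.65, 10.8 and 1.66 RPKM after p53 RNAi at day 13 and at 1.09, 2.22 and 0 RPKM in the control. SMED30008776 was at 2.48, 10.4, 14.3 and 0.159 RPKM against 0.887, 5 and 0 RPKM, and its lowest p53 library was below 2 of the 3 controls. SMED30002285 was at 7.16, 13.6, 22.4 and 1.74 RPKM against 2.16, 4.61 and 0.787 RPKM. SMED30031525, an intermediate transcript, had D of 1.95 with p53 libraries at 8.39, 14.9, 15.1 and 3.86 RPKM and controls at 2.27, 3.54 and 0.12 RPKM, so that its groups just separated. In all of these, p53 replicate 4 was the lowest of its group and the control that stood apart was the lowest of its own.

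Certain libraries were often the lowest of their group. Replicate 5 of the control at day 13 was at 0 for 14 of the 98 members and was the lowest of the 3 controls for 76. That library was low in general. It was at 0 for 4546 of all 25462 transcripts, and its median over all tested transcripts was 3.08 RPKM, beside 3.71 and 3.69 RPKM in the other controls. These counts are therefore not shown to be particular to the members. Replicate 4 of p53 at day 13 was the lowest p53 library for 52 members, among them 21 of the 23 overlapping and 9 of the 36 separated transcripts. How often it was the lowest over all tested transcripts was not counted. At day 6, replicate 4 was the lowest of its group for 22 of the 23 overlapping transcripts in the p53, the control and the zfp1 groups alike. How often this held over all tested transcripts was not counted either. Over them the median of replicate 4 was 3.69 RPKM for p53 (others 3.86 to 4), 3.73 for the control (3.76 to 3.92) and 3.94 for zfp1 (3.19 to 4). Those 3 libraries had 17296913, 8385967 and 4391559 reads, and what a shared replicate number stands for is not given in the labels.

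The median level of the 23 overlapping transcripts showed these libraries at a glance. At day 6 it was 13.1, 8.92, 8.52 and 2.52 RPKM in the p53 libraries and 10, 9.5, 8.62 and 2.14 RPKM in the controls. At day 13 it was 4.12, 9.07, 10.4 and 1.9 RPKM in the p53 libraries, 1.52, 2.99 and 0.283 RPKM in the controls and 2.41, 5.03, 0.716 and 0.419 RPKM after zfp1 RNAi. The groups of day 13 overlapped. For the 36 separated transcripts the same medians were 6.36, 6.17, 5.68 and 6.06 RPKM, against 2.4, 2.03 and 1.62 in the control and 2.33, 2.54, 2.04 and 1.7 after zfp1 RNAi.

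**Figure D3:**
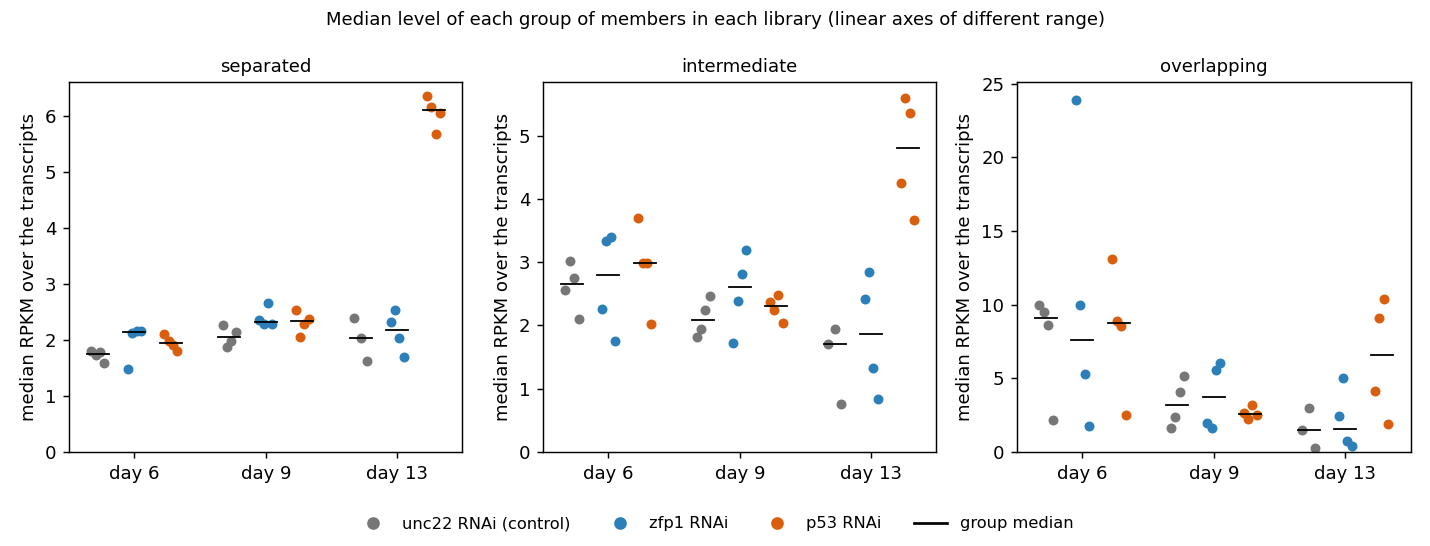
Median RPKM over the transcripts of each group in each library, on linear axes of different range, with points for libraries and bars for the median of the libraries. Separated transcripts sit at 5.68 to 6.36 RPKM in the p53 libraries of day 13 and below 3 RPKM elsewhere, whereas overlapping transcripts start high at day 6, with replicate 4 low in each group, and their p53 and control libraries of day 13 overlap.

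Members of the 3 groups also differed in properties that the rule for the 98 did not use. The separated transcripts had a median inferred length of 1916 bases (quartiles 1097 and 2762), the intermediate 1020 (468 and 1799) and the overlapping 517 (402 and 808), and all tested transcripts 1074 (581 and 1851). The SD of log2(RPKM + 1) within the day 9 groups, whose 12 libraries entered no difference of the rule, had a median of 0.18 for separated, 0.319 for intermediate and 0.627 for overlapping transcripts, and 0.269 over all tested. The division itself asked that no day 9 library of a separated transcript reach the p53 libraries of day 13, which favours a small spread in that group, so this order is a description only. The order of lengths is likewise a description. At equal RPKM a shorter transcript holds fewer reads, and whether this bears on the division was not tested.

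The overlapping transcripts varied together. Over the 12 day 9 libraries, the deviations of a transcript from its group means had a mean pairwise Pearson correlation of 0.72 between overlapping transcripts, 0.20 between intermediate ones, -0.02 between separated ones and 0.00 between tested transcripts at large; the transcripts share these libraries and no p is given. In the controls of day 9 the median of the overlapping transcripts was 1.65, 2.35, 4.06 and 5.13 RPKM and in the zfp1 libraries 1.96, 1.6, 5.54 and 6.07 RPKM. Replicates 3 and 4 were the higher pair in both. In the p53 libraries of day 9 it was 2.62, 2.25, 3.21 and 2.54 RPKM, with no such pair.

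**Figure D4:**
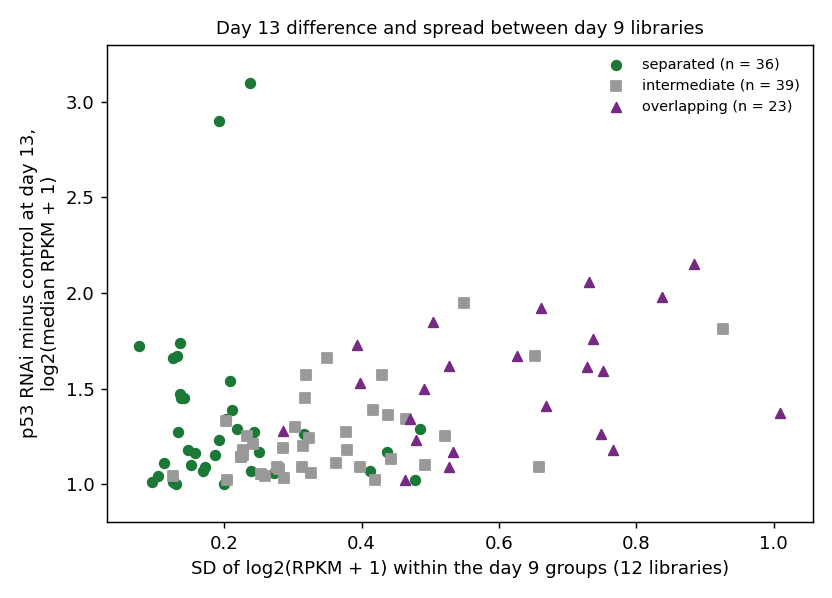
D for p53 at day 13 (vertical axis, log2 units) against the SD of log2(RPKM + 1) within the day 9 groups (horizontal axis, 12 libraries) for the 98 members, with circles for 36 separated, squares for 39 intermediate and triangles for 23 overlapping transcripts. The large D of SMED30030712 and SMED30008091 goes with a small day 9 spread, while the other members with D near 2 have a large one.

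How far membership leaned on single libraries differed between the groups. The division set the p53 libraries of day 13 of separated transcripts above all others. That favours their staying members, so the splits by group are a description only. When each of the 19 libraries that the differences of the rule used was left out in turn, 16 of the 98 stayed members throughout, and these were 13 separated, 2 intermediate and 1 overlapping transcript. Without replicate 5 of the control at day 13 the rule gave 79 transcripts, of which 60 were shared with the 98, or 75.9% of the one list and 61.2% of the other; the 60 held 27 separated, 24 intermediate and 9 overlapping transcripts. Without replicate 1 or 4 of that group it gave 110 and 106, of which 63 and 58 were shared (57.3% and 54.7% of those lists, 64.3% and 59.2% of the 98). Without the 3 libraries that stood apart it gave 78, of which 58 were shared (74.4% and 59.2%). The median D at day 13 of the overlapping transcripts was then 1.08 in place of 1.53, and that of the separated ones 1.16 in place of 1.20. The difference of the overlapping transcripts between days 13 and 6 in the control was -1.39 in place of -1.79 without these libraries, and after zfp1 RNAi -1.10 in place of -1.69. Among the original 98 members, 39 in place of 36 had the separated pattern when these 3 libraries were left out. Leaving out libraries that have to be exceeded can only raise this count, so nothing is read from the rise. After median-ratio or quantile scaling, 37 or 32 of the 98 had the pattern.

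Taking the day 9 control in place of that of day 13, which the rule did not use for any difference, gave 69 transcripts, of which 37 were shared (53.6% of these and 37.8% of the 98). These were 23 separated, 10 intermediate and 4 overlapping transcripts. For separated transcripts the division also used the day 9 controls, so nothing is read from this order. Against zfp1 libraries of the same day, 70 of the 98 members were higher in p53 libraries by 1 or more on the log2 scale, 25 of the separated, 24 of the intermediate and 21 of the overlapping, where 275 of the 19206 tested transcripts were. The limits of the rule on p53 and zfp1 at day 13 all but fix this count, and nothing is read from it.

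Day 9 asks whether the members already differed 4 days earlier, in libraries that set none of the differences that chose them. The 98 transcripts, all of which passed the filter on low values, had a median p53 minus control difference of 0.03 on the log2 scale (quartiles -0.19 and 0.19), beside 0.00 (-0.19 and 0.18) for all 19206 tested. With limma and Benjamini-Hochberg adjustment over all tested transcripts, 1 member was higher, where 1.85% of all transcripts were, and 0 members were lower, where 2.06% were. At an unadjusted p under 0.05 there were 10 members (10.2%), against a background of 13.3%, and limma-voom on recovered reads also called 1 higher and 0 lower. All 4 p53 libraries of day 9 were above all 4 controls for 5 members, or 5.1%, beside 4.85% of all tested. Shares this near the background are no result about the members.

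The precision at day 9 differed between the groups. The upper limit of the 95% interval of the limma difference lay below 1 for 75 of the 98 members, which was all 36 separated, 32 of 39 intermediate and 7 of 23 overlapping transcripts. The separated transcripts had a median difference of 0.13 with a median SE of 0.18. Since they were set apart by p53 libraries of day 13 lying above all others, those of day 9 included, their low level and small spread at day 9 are partly fixed by that division. The overlapping transcripts had a median difference of -0.11 with a median SE of 0.62. For 23 members in all, most of them overlapping, a p53 level above the control by 1 was thus within the error. How many lower limits reached -1 was not counted. SMED30030712 differed by 0.15 (95% interval -0.28 to 0.58) and SMED30008091 by -0.04 (-0.43 to 0.35).

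SMED30011179, an intermediate transcript of 1020 bases, was the member called at day 9. It was at 2.39, 1.74, 1.19 and 2.48 RPKM in the p53 libraries of day 9, or 1.95 ± 0.604 (SD, n = 4), and at 0.512, 0.593, 0.409 and 0.543 RPKM in the controls, or 0.514 ± 0.0778 (SD, n = 4). The groups did not overlap, and the difference was 0.94 ± 0.21 (SE) on the log2 scale with a limma adjusted p of 6.2e-03. Among 18 alternative settings, 1 did not call this transcript, namely the fit with a replicate block. Its p53 libraries were at 0.836, 1.33, 0.752 and 1.69 RPKM at day 6 and at 2.23, 3.21, 4.04 and 3.43 RPKM at day 13, while the controls of day 13 were at 0.483, 0.901 and 0.987 RPKM. The zfp1 libraries were at 1.28, 0.734, 1.41 and 1.45 RPKM at day 9, overlapping the p53 libraries, and at 1.31, 0.961, 1.13 and 2.05 RPKM at day 13, overlapping the controls.

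The 5 next largest day 9 differences did not pass. SMED30032151 differed by 0.75 ± 0.32 (SE, limma adjusted p 2.6e-01), SMED30027900 by 0.62 ± 0.31 (3.8e-01) and SMED30029672 by 0.62 ± 0.22 (1.3e-01). SMED30015694 differed by 0.46 ± 0.19 (2.3e-01) and SMED30014407 by 0.45 ± 0.19 (2.6e-01). The last of these, a separated transcript, was at 3.1, 3.06, 2.99 and 3.54 RPKM in p53 libraries and 1.73, 1.9, 2.4 and 2.25 RPKM in controls of day 9, groups that did not overlap.

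The lowest day 9 differences were those of SMED30016225 with -0.85 ± 0.79 (SE, limma adjusted p 7.6e-01), SMED30028642 with -0.71 ± 0.65 (7.5e-01), SMED30006976 with -0.54 ± 0.36 (5.9e-01) and SMED30018165 with -0.50 ± 0.39 (6.8e-01). Their SEs were large beside the differences, and SMED30016225 spread from 1.09 to 11.6 RPKM within the p53 libraries of day 9 alone.

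How many members passed at day 9 depended on the libraries that stood apart, although none of them is a day 9 library, because all 9 groups share one estimate of the spread. Without these 3, limma called 6 members higher (6.12%, beside 4.4% of all tested) and 1 lower (1.02%, beside 5.03%). The additional higher ones included SMED30032151 (adjusted p 5.0e-02), SMED30015694 (3.1e-02) and SMED30014407 (2.8e-02) at the same differences as above, and the lower one was the separated transcript SMED30012951, at -0.34 ± 0.10 (SE, adjusted p 3.1e-02). SMED30029672 passed without replicate 1 of p53 at day 9, with 0.79 ± 0.22 (SE, limma adjusted p 4.0e-02).

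**Figure D5:**
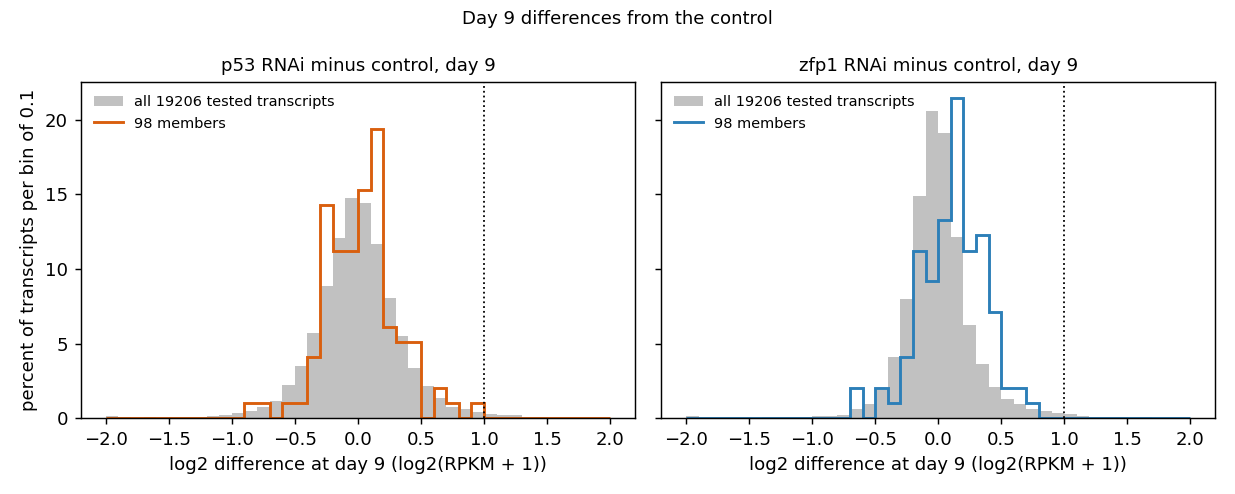
Distribution of the day 9 log2 differences from the control, p53 RNAi on the left and zfp1 RNAi on the right, as the percent of transcripts per bin of 0.1; grey bars stand for all 19206 tested transcripts and lines for the 98 members, with values beyond the axis counted in the end bins, and the dotted line marks a difference of 1. The members lie over the background for p53, with medians of 0.03 and 0.00, and slightly to its right for zfp1, with medians of 0.13 and -0.01.

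Day 9 of zfp1 RNAi was tested against the same controls, so its values are set beside those of p53 and not compared with them as independent. The members had a median difference of 0.13 (quartiles -0.04 and 0.28), beside -0.01 for all tested, and 69 (70.4%) were above 0, beside 47.9% of all tested. By limma, 1 member was higher, where 2.16% of all transcripts were, and 1 was lower, where 1.07% were; 12 members (12.2%) had an unadjusted p under 0.05, against 8.41%. Without the 3 libraries that stood apart, 4 were higher (4.08%, beside 3.4%) and 1 was lower (1.02%, beside 1.65%).

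The transcript called lower after zfp1 RNAi at day 9 was SMED30012951, of 2417 bases. It was at 1.08, 0.581, 0.772 and 0.843 RPKM after zfp1 RNAi and at 1.95, 1.63, 1.97 and 2.02 RPKM in the control, and the groups did not overlap. The difference was -0.67 ± 0.14 (SE) on the log2 scale, with a limma adjusted p of 1.8e-03, and that of p53 was -0.34 ± 0.14 (2.2e-01). At day 6 its zfp1 libraries were at 0.241, 0.787, 0.746 and 0.517 RPKM, below all controls of that day, which were at 1.28, 1.24, 1.52 and 1.5 RPKM. At day 13, where the zfp1 and control libraries overlapped, D for zfp1 was -0.29, within the limit of the rule.

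The transcript called higher was SMED30026407, of 1891 bases, also a separated one. It was at 5.72, 5.39, 5.16 and 5.78 RPKM after zfp1 RNAi and 3.5, 2.72, 3.35 and 3.9 RPKM in the control at day 9, without overlap. The difference was 0.58 ± 0.14 (SE, limma adjusted p 1.1e-02), beside 0.30 ± 0.14 (3.3e-01) for p53, and without replicate 2 of the control it was 0.51 ± 0.15 (7.0e-02). Its zfp1 libraries of day 13, at 5.28, 4.64, 4.68 and 5.46 RPKM, were above the controls of that day at 3.7, 3.19 and 4.11 RPKM, and its p53 libraries were higher than both at 9.83, 7.17, 9.48 and 8.63 RPKM.

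Between p53 and zfp1 libraries of day 9, limma called 0 members in either direction, where 0.12% of all tested transcripts were called. At an unadjusted p under 0.05 there were 6 members (6.12%), against 7.74%, and limma-voom called 0. The median difference of the members was -0.09, beside -0.02 for all tested, and the upper limit of the 95% interval was below 1 for 81 of the 98. A p53 level above that of zfp1 by 1 was thus within the error for 17 members. Lower limits were not counted, and some went below -1, as for SMED30028642 (95% interval -1.92 to 0.72).

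The pattern of SMED30030712 over the 9 group means was most like that of 4 transcripts by Pearson correlation of mean log2(RPKM + 1), a measure that the day 13 value dominates. SMED30008091, a member, had a correlation of 0.986. The other 3 were not members, with D for p53 at day 13 of 0.81, 0.61 and 0.61 in the order named below. SMED30026031 and SMED30034761 also had no group median of 3 RPKM. SMED30026031, with a correlation of 0.987, had a day 13 median of 1.31 RPKM in p53 and 0.32 RPKM in control libraries. SMED30029578, with 0.981, had 5.16 and 3.05 RPKM, and SMED30034761, with 0.980, had 1.83 and 0.851 RPKM. Transcripts of the same shape were therefore also found below the threshold of the rule, at lower levels or smaller differences.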

How the data were processed

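The authors deposited RPKM values of 25462 transcripts, 1 column for each of 35 libraries. Per the submitters' processing notes, CASAVA 1.8.2, Bowtie and edgeR were used, with no role or order; which transcript assembly they used is not given in the sources used here. Reads recovered from the steps of the values came out whole, within 0.01 reads, for 100% of values and gave the depths. Transcript lengths were inferred from the same steps and were not checked against an annotation. The members and lists were chosen with earlier results of these data known; gene and marker lists could not be applied, since identifiers are not paired with names.

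For day 9, log2(RPKM + 1) was fitted in R 4.3.3 with limma 3.58.1; the scale understates changes of weak transcripts. The fit had 1 mean per group over all 9 groups and an intensity trend. Calls were made at a Benjamini-Hochberg adjusted p under 0.05 over the 19206 transcripts that reached 1 RPKM in 3 or more libraries. The fit was tested on simulated data, in which transcripts varied independently and only those with a mean of at least 5 RPKM were changed. Most members were weaker and the overlapping ones varied together, so that test does not show how the fit treats them. Members named were the 8 with the largest D at day 13, the 5 with the highest p53 median at day 13, the 6 largest and 4 lowest day 9 differences, the 2 on either side of the threshold and the 4 transcripts most like the first; others are said to be chosen after seeing their values or were called. Alternatives covered pseudocounts of 0.1 and 5 RPKM, filters, scalings, groups fitted, voom on recovered reads, a replicate block, left-out libraries and another control day. Python 3.11.15, numpy 2.4.6, pandas 2.3.3 and matplotlib 3.10.9 were used.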

Additional observations from a re-analysis of the deposited data

Results flagged for a closer look

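In 240 groups of 4 libraries, over the 26 members named and the medians of the member groups, 11 had a highest or lowest library far from the other 3. About 1 in 20 such groups is picked out by chance alone.

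Replicate 1 of zfp1 at day 6, which stood apart as a library, gave 4 of them. In it SMED30030712 was at 12.1 RPKM where the others were at 4.43 to 5.69, SMED30015694 at 6.9 RPKM (3.34 to 3.83) and SMED30018165 at 8.35 RPKM (1.76 to 2.54). The median of the separated transcripts was low there, at 1.49 RPKM where the others were at 2.12 to 2.17. Replicate 5 of zfp1 at day 13, another such library, held SMED30008091 at 5.89 RPKM where the others were at 2.4 to 2.6.

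Replicate 4 of the control at day 6 was low for 2 members. SMED30031525 was at 2.34 RPKM there (others 8.96 to 9.95) and SMED30015821 at 5.65 RPKM (23.3 to 25.9). Of the other 4, SMED30008091 was at 2.2 RPKM in replicate 2 of p53 at day 6 (2.84 to 2.87), SMED30027900 at 1.45 RPKM in replicate 2 of the control at day 6 (2.34 to 2.41), SMED30015694 at 3.47 RPKM in replicate 2 of zfp1 at day 9 (2.73 to 2.74) and SMED30010479 at 0.971 RPKM in replicate 2 of zfp1 at day 13 (1.49 to 1.55).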

How the results depend on the processing

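The rule gave 98 transcripts, 28 with a pseudocount of 5 RPKM, and 74 to 134 leaving out 1 library at a time. At day 9, all transcripts called numbered 751 for p53, 621 for zfp1 and 23 between them. These were 330 and 241 with a mean of at least 5 RPKM (29 members tested, 0 higher in either, 0 lower for zfp1), 444 for p53 and 12 between with the compared groups alone (3 members higher for zfp1), 53 between with quantile scaling (1 member lower for p53), and 1811, 970 and 230 without the 3 libraries (6 higher and 1 lower for p53, 4 higher for zfp1). With members by the rule without replicate 5 of the control at day 13, 1 was lower for p53 and 3 higher for zfp1. Leaving out 1 library gave 541 to 734, 475 to 532 and 9 to 19 calls, with 1 to 2 and 0 to 1 members higher for p53 and zfp1. With the replicate block the calls were 318, 990 and 2, with 0 members higher for p53, where SMED30011179 kept 0.94 ± 0.17 (SE, limma adjusted p 5.3e-02), and 4 for zfp1. Same-numbered libraries correlated at -0.01 to 0.35 for p53 and control, 0.03 to 0.61 for zfp1 and control and -0.39 to 0.47 for p53 and zfp1, so the numbers were not taken as pairs. TMM scaling of recovered reads was not run. Other causes of these shifts were not tested. Members at few reads in the control limit what depth can show.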

Other observations

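Transcripts outside the set varied with the overlapping members at day 9. Over the 12 libraries of that day, the deviations from the group means of 479 transcripts that were not members correlated above 0.8 with the mean deviation of the 23 overlapping members. Those of 27 members did so too, but this count took in the overlapping members, which formed that mean. The cutoff was set after the data were seen, and the transcripts share the libraries, so this is a description. The median level of the 479 in the control was 2.2, 1.69 and 1.27 RPKM at days 6, 9 and 13, after zfp1 RNAi 2.04, 1.69 and 1.41 RPKM, and after p53 RNAi 2.4, 1.65 and 2.25 RPKM. Their course was that of the overlapping members at a lower amplitude. Of the 479, 52 (10.9%) had D of at least 1 for p53 at day 13, beside 4.04% of all tested, and 5 had such a difference at day 9.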
